A study of Mus musculus with 10 samples.

Results

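The anaphase promoting complex or cyclosome, APC/C, is a ubiquitin ligase built from many subunits, and 10 genes of its core were followed here in mouse oocytes at metaphase II. They were taken by name as listed core subunits, with no measured value used: Anapc1, Anapc2, Anapc4, Anapc5, Anapc7, Anapc10, Anapc11, Cdc16, Cdc23 and Cdc27. All 10 were found among the 35501 genes of the table, and all 10 passed a filter at a mean of 1 TPM, as did 11664 genes in all. The series holds 5 libraries of TubA-treated oocytes and 5 control libraries, each labelled as a single cell. Both groups came from ICR mice aged 6 to 8 weeks, whose oocytes were taken from the ovary at the germinal vesicle stage and matured for 16 h in culture at 37 °C in 5% CO2. TubA, given at 0.1 µg/mL for 16 h, is not spelled out in the labels. The name commonly stands for tubastatin A, which blocks HDAC6, an enzyme that removes acetyl groups from tubulin. The labels name no vehicle for the control and no animal or dish for any library, so n counts libraries, and each p-value reflects their spread alone, which may be technical.

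The APC/C attaches ubiquitin to cyclin B and securin, and their destruction lets chromosomes separate and the cell leave division. In its architecture, Anapc1, Anapc4 and Anapc5 form a platform, the cullin Anapc2 and the RING protein Anapc11 form the catalytic core, Anapc10 helps to bind substrates, and Cdc27, Cdc16, Cdc23 and Anapc7 form an arc of tetratricopeptide repeat proteins. In a mature egg the complex is held back by Emi2, the product of Fbxo43, until fertilisation.

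Values are TPM, an abundance corrected for transcript length and scaled to an equal sum for each library, so the depth is unknown and no counting interval is given. Oocyte marker genes summed to between 25309 and 37603 TPM in TubA libraries and between 24894 and 35362 TPM in control libraries. H1foo, at a mean of 14302 TPM, was the largest part, and single markers differed in evenness. Gdf9 ran from 5324 to 7556 TPM with TubA and from 4708 to 6845 TPM in control. Zp2 ran from 206 to 4518 TPM with TubA and from 93.1 to 3256 TPM in control. The 10 cumulus and granulosa markers summed to between 13.7 and 20.7 TPM with TubA and between 12.2 and 18.2 TPM in control, most of it Cyp19a1, with Amh and Foxl2 listed at 0 in every library. The 6 theca and stroma markers reached at most 16.9 TPM with TubA and 22.0 TPM in control, and the 7 blood, immune and endothelial markers at most 79.4 TPM with TubA and 75.6 TPM in control. The libraries were clustered on all genes tested and divided into 2 sets, a number that was imposed and not found. Each set held both treatments. TubA replicates 1 and 2 and control replicates 1 to 3 made set A, and TubA replicates 3 to 5 and control replicates 4 and 5 made set B. The ranges of each of the 10 subunit genes overlapped between the sets, but medians were higher in set B for every gene except Anapc7. The median of Anapc11 was 100.005 TPM in set A and 206 TPM in set B, and only control replicate 2 of set A reached the set B range. For Anapc7 it was 19.9 TPM in set A and 13.5 TPM in set B. The sets were found from the same values, so these are descriptions.

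For several subunits the level of the gene rested on transcripts that are not annotated as protein coding. The program that divided reads between transcripts is not given in the sources used here. Whether these levels are those of real isoforms or come from how reads were assigned was not tested, and this holds for every transcript level, coding share and coding order below. The sequences below show what sets those transcripts apart from a coding transcript of the same gene, because over most of their length the transcripts of a gene share their sequence. They are from GENCODE M21 on GRCm38, all on chromosome 5. In the Anapc5 set the capitals mark first the own first exon of Anapc5-217 and then the 39 bases of Anapc5-201 that Anapc5-217 lacks.
Anapc5-217 first exon: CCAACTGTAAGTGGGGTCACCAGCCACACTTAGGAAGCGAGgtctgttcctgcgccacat
Anapc5-201 later exon: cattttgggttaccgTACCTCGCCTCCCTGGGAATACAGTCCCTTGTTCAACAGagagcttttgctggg
Anapc5-217 at that place: cattttgggttaccgagagcttttgctggg

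The first exon of Anapc5-217 lies at chr5:122818543-122818583 on the minus strand, and no other annotated Anapc5 transcript starts with it. The 39 bases lie at chr5:122800594-122800632, at the start of an exon. They are missing from 6 annotated transcripts that span the place, Anapc5-217 and the coding Anapc5-218 among them. Anapc5-217 is a processed transcript, a class with no assigned open reading frame, of 905 bases and 9 exons, against 2760 bases and 17 exons in the coding Anapc5-201. Of its 875 words of 31 bases, 68 (7.77%) do not occur in Anapc5-201.

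Anapc4-207 is annotated as a target of nonsense-mediated decay, the surveillance that removes messages with an early stop codon. It carries an extra exon of 73 bases at chr5:52835891-52835963 on the plus strand, found in no other annotated Anapc4 transcript. The capitals mark the inserted bases up to and including the stop codon that ends its reading frame.
Anapc4-207: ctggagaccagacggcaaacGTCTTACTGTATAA
Anapc4-201: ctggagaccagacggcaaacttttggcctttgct

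Apart from that exon and its ends, Anapc4-207 follows the exons of the coding Anapc4-201. The last exon of Anapc4-201 has 1403 bases and runs 1055 bases past the end of Anapc4-207, whose last exon has 348 bases. Of the 2728 words of Anapc4-207, 103 (3.78%) do not occur in Anapc4-201. Anapc7-204 is a fragment of 542 bases that reads on for 175 bases into an intron of Anapc7-203, and the capitals mark the first of these bases, from chr5:122440311 on the plus strand.
Anapc7-204: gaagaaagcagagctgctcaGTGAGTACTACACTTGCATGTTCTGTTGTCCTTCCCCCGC
Anapc7-203: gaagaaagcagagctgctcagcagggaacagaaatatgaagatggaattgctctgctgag

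**Figure D1:**
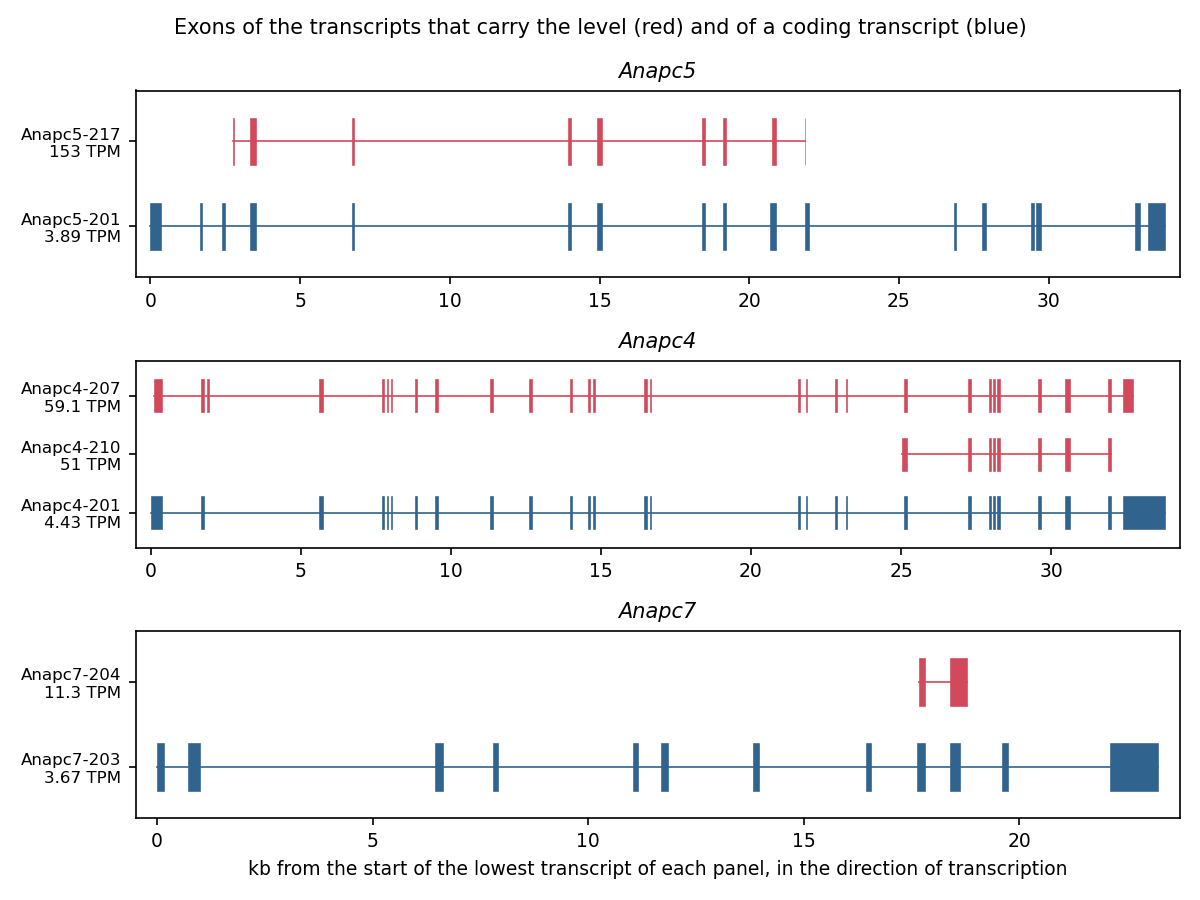
Exons drawn as boxes along Anapc5, Anapc4 and Anapc7, in kb from the start of the coding transcript at the bottom of each panel, with the mean TPM over 10 libraries beside each name. Anapc5-217 (153 TPM), Anapc4-207 (59.1 TPM), Anapc4-210 (51.0 TPM) and Anapc7-204 (11.3 TPM), in red, exceed the coding transcripts below them, in blue.

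In the platform subunits Anapc5 and Anapc4, the coding transcripts were a small share of the level of the gene. Anapc5 (chr5:122787459-122821339) had 195, 78.3, 97.6, 325 and 209 TPM in TubA replicates 1 to 5, against 59.6, 142, 221, 214 and 165 TPM in control replicates 1 to 5. The groups overlapped over most of their range, with TubA replicate 4 highest and control replicate 1 lowest. Anapc5-217 alone made up 89.4% of the Anapc5 TPM, at 165 ± 93.4 TPM with TubA and 140.5 ± 59.2 TPM in control (mean ± SD, n = 5 libraries in each group, here and below). The coding transcripts of Anapc5 together stood at 10.04 ± 4.36 TPM with TubA and 8.62 ± 4.27 TPM in control.

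Anapc4 (chr5:52834012-52867797) had 93.0, 169, 120.4, 136 and 118 TPM in TubA replicates 1 to 5, against 122, 87.0, 96.2, 109 and 94.5 TPM in control replicates 1 to 5. The TubA libraries lay mostly above the control libraries, but TubA replicate 1 was below 4 of the 5 control libraries. Anapc4-207 held 51.5% of the gene's TPM and Anapc4-210, a retained intron fragment of 801 bases, held 44.5%. The coding Anapc4-201 held 3.87%, at 4.84 ± 1.39 TPM with TubA and 4.03 ± 0.957 TPM in control.

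Anapc1 (chr2:128610104-128687391), the largest subunit and the scaffold of the platform, had 23.8, 16.3, 30.9, 32.8 and 27.3 TPM in TubA replicates 1 to 5, against 20.7, 32.1, 32.1, 39.4 and 32.7 TPM in control replicates 1 to 5. Control replicate 4 was highest and TubA replicate 2 lowest. The full-length coding transcript Anapc1-201 varied little, at 17.5 ± 2.69 TPM with TubA and 17.5 ± 3.01 TPM in control. The short processed transcript Anapc1-209 made up 33.3% of the gene and varied far more, from 2.19 to 14.0 TPM with TubA and from 1.41 to 20.8 TPM in control.

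The catalytic pair stood far apart in level. Anapc11 (chr11:120598421-120608198), the RING subunit that brings in the ubiquitin-carrying enzyme, had 38.5, 100.005, 206, 221 and 172 TPM in TubA replicates 1 to 5, against 81.2, 215, 110.3, 270.5 and 199.7 TPM in control replicates 1 to 5. It was lowest in TubA replicate 1 and highest in control replicate 4, a 7.02-fold range over all libraries, the widest of the 10 genes. Nearly all of it was the coding Anapc11-202, at 98.6% of the gene's TPM. Anapc2 (chr2:25272478-25285915), the cullin that holds Anapc11, was the lowest of the 10 as a gene, with 2.49, 3.11, 4.73, 6.59 and 3.57 TPM in TubA replicates 1 to 5, against 4.57, 5.67, 4.15, 4.78 and 4.88 TPM in control replicates 1 to 5. The TubA libraries of Anapc2 spanned the whole control range. The TPM of Anapc11 exceeded that of Anapc2 in every library, by 15.5 to 48.1 times with TubA and by 17.8 to 56.5 times in control.

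Anapc10 (chr8:79711820-79779059), which helps the coactivators to hold destruction motifs, had 78.0, 79.3, 92.1, 46.3 and 59.4 TPM in TubA replicates 1 to 5, against 84.9, 75.0, 54.1, 94.5 and 95.2 TPM in control replicates 1 to 5. The groups overlapped. Coding transcripts gave 87.3 ± 10.04% of its TPM with TubA and 83.9 ± 10.7% in control.

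In the tetratricopeptide arc, Cdc27 (chr11:104502745-104550620), which binds the tails of the coactivators and of Anapc10, had the lowest coefficient of variation of the 10 genes over all libraries (18.8%), with 61.4, 72.7, 63.5, 63.7 and 72.7 TPM in TubA replicates 1 to 5, against 51.1, 50.2, 93.6, 62.1 and 68.2 TPM in control replicates 1 to 5. All TubA libraries lay within the control range. Cdc16 (chr8:13757676-13781938), a repeat protein in the middle of the arc, had 29.2, 22.7, 13.7, 48.8 and 26.5 TPM in TubA replicates 1 to 5, against 14.5, 20.2, 36.9, 27.7 and 24.5 TPM in control replicates 1 to 5. TubA libraries were both the highest and the lowest. Coding transcripts made up 98.1 ± 1.12% of Cdc27 with TubA and 99.3 ± 0.356% in control. For Cdc16 they made up at least 99.6% in every library.

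Cdc23 (chr18:34630951-34651735), the repeat protein at the foot of the arc, had 7.69, 4.99, 4.66, 6.27 and 6.19 TPM in TubA replicates 1 to 5, against 6.01, 5.45, 11.3, 7.13 and 10.3 TPM in control replicates 1 to 5. Control replicates 3 and 5 were above every TubA library, and the other control libraries lay among them. Its gene overlaps Kif20a, a mitotic kinesin gene on the other strand at a mean of 276 TPM, which shares 12.4% of the words of Cdc23. Whether strand was kept is not given in the labels, so Cdc23 reads in the overlap cannot be told from those of Kif20a. Anapc7 (chr5:122421693-122444912), the repeat protein found in animals beside Cdc27, had 19.9, 30.6, 10.5, 18.1 and 18.3 TPM in TubA replicates 1 to 5, against 21.5, 11.5, 19.4, 12.6 and 13.5 TPM in control replicates 1 to 5. Here too the groups overlapped, with TubA replicate 2 highest and TubA replicate 3 lowest. Anapc7-204 held 64.3% of its TPM, and coding transcripts gave 34.6 ± 7.65% with TubA and 38.9 ± 5.52% in control.

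**Figure D2:**
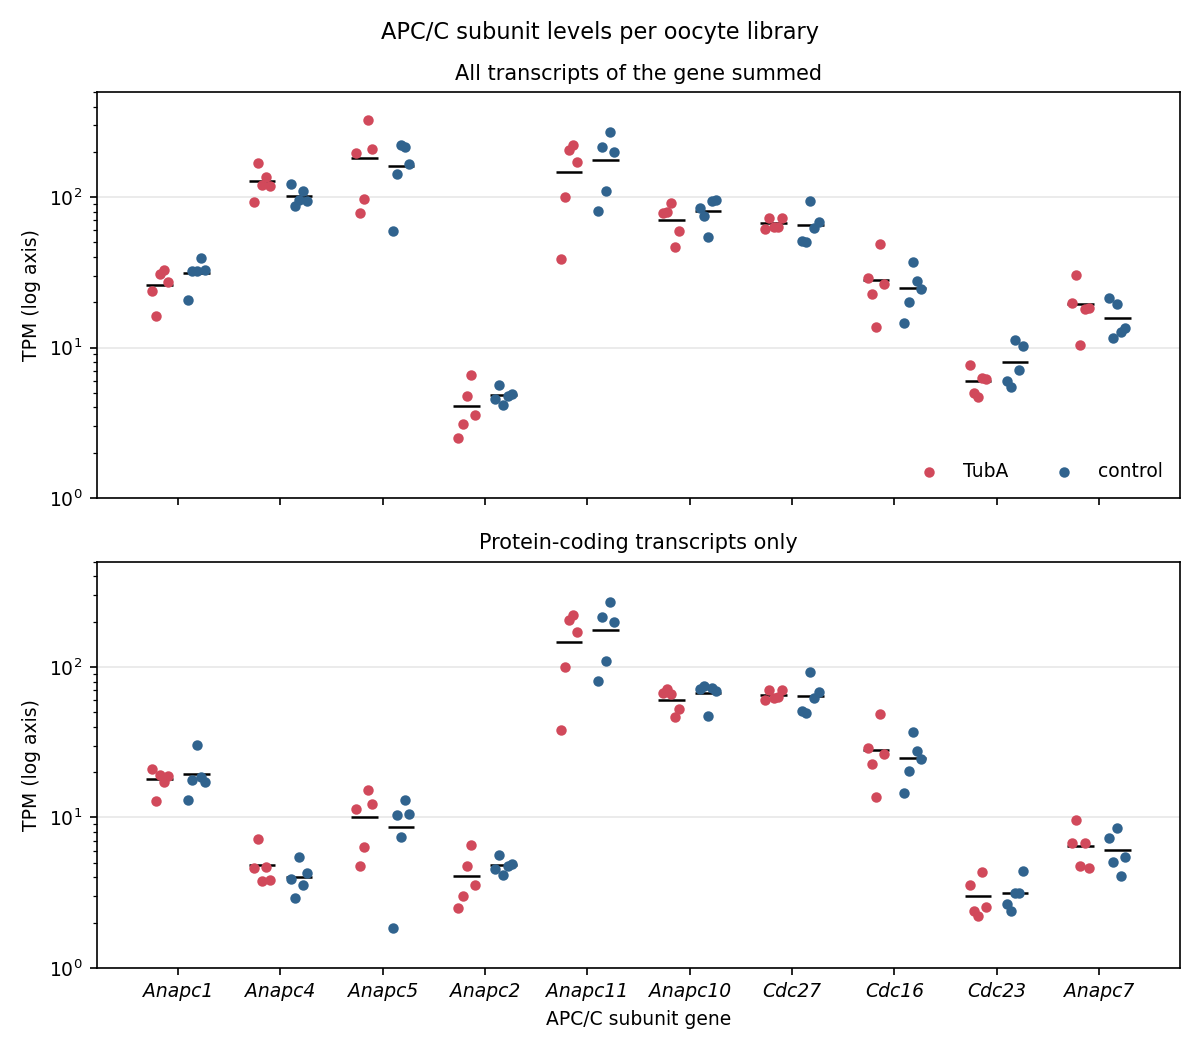
TPM on a log axis for each subunit gene, with 5 TubA libraries (red) left of 5 control libraries (blue) and a black bar at each group mean, for all transcripts summed (top) and for coding transcripts only (bottom). The groups overlap for every gene, and Anapc5 and Anapc4 move from means of 171 and 115 TPM in the top panel to 9.33 and 4.43 TPM in the bottom panel.

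The order of the subunits therefore depended on which transcripts were summed. By all transcripts it ran Anapc5 (mean over 10 libraries 171 TPM), Anapc11 (161), Anapc4 (115), Anapc10 (75.9), Cdc27 (65.9), Anapc1 (28.8), Cdc16 (26.5), Anapc7 (17.6), Cdc23 (6.99) and Anapc2 (4.45 TPM). Several neighbours were not separated beyond their spread. Anapc5 exceeded Anapc11 in 4 of 10 libraries, and Anapc1 exceeded Cdc16 in 6 of 10. Cdc27 exceeded Anapc1 in 10 of 10, and so did Anapc7 relative to Cdc23. Among genes tested, Anapc5 stood at percentile 91.5 of mean TPM and Anapc2 at percentile 30.4.

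By coding transcripts alone Anapc11 led at 161 TPM and was above Cdc27 (65.0 TPM) in 9 of 10 libraries. Cdc27 exceeded Anapc10 (63.8 TPM) in only 3 of 10. Cdc16 (26.5 TPM), Anapc1 (18.6), Anapc5 (9.33), Anapc7 (6.28), Anapc2 (4.45), Anapc4 (4.43) and Cdc23 (3.08 TPM) followed, with Anapc2 above Anapc4 in 6 of 10. In 4 of the 10 genes, Anapc4, Anapc5, Anapc7 and Cdc23, coding transcripts averaged under 50% of the gene's TPM. Among the 10891 protein-coding genes tested, 15.7% did so, and the median share was 98.0%. The lowest shares, 3.91% for Anapc4 and 5.52% for Anapc5, ranged from 3.15% to 5.70% and from 3.11% to 7.25% over the 10 libraries, so they were low in both groups.

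**Figure D3:**
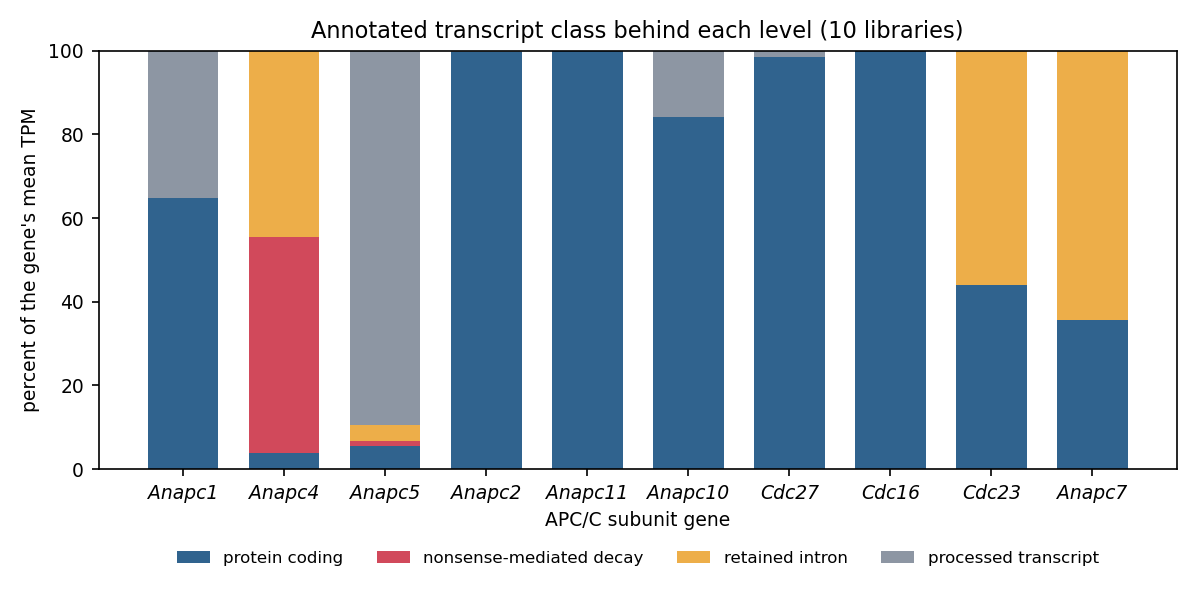
Stacked bars of the percent of each gene's mean TPM over 10 libraries by annotated transcript class, for the 10 subunit genes ordered as platform, catalytic pair, Anapc10 and repeat proteins. Anapc2, Anapc11, Cdc16 and Cdc27 are almost wholly coding, while Anapc5 is mostly processed transcript and Anapc4 mostly decay target and retained intron.

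None of the 10 subunit genes passed the test between TubA and control oocytes. The comparison asks whether maturation with the agent changes the message of the complex. By limma on log2(TPM + 1), fitted across all genes with Benjamini-Hochberg adjustment, 0 of the 10 passed an adjusted p of 0.05 (limma, adjusted p = 0.9999 for each), where 0.00857% of all genes did. At an unadjusted p under 0.05 stood 0 of the 10, where 2.51% of all genes did. None of the 10 had its TubA libraries all on one side of its control libraries, which held for 0.454% of all genes. The difference was positive in 5 genes and negative in 5, where 48.6% of all genes were negative. The median of the 10 was -0.061 log2 units, and that of all genes tested was 0.0097.

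The smallest p was that of Anapc4, at 127 ± 28.05 TPM with TubA and 102 ± 14.0 TPM in control (log2 difference 0.30, 95% interval -0.11 to 0.71, limma unadjusted p = 0.13). Its coding transcript alone gave 0.21 (-0.34 to 0.75). Without TubA replicate 1 the unadjusted p of Anapc4 was 0.047, still far from the threshold after adjustment (limma adjusted p = 1). In that fit 260 of the 11664 genes tested stood at an unadjusted p under 0.05. Without TubA replicate 2, the highest library of Anapc4, its log2 difference was 0.195 (limma unadjusted p = 0.33).

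The largest negative differences were those of Anapc11 and Cdc23. Anapc11 stood at 147 ± 76.6 TPM with TubA and 175 ± 77.9 TPM in control (log2 difference -0.35, 95% interval -1.38 to 0.68, limma unadjusted p = 0.47). Without TubA replicate 1 the difference turned to 0.065. With the library set as a term it was -0.61 (limma unadjusted p = 0.087), and it was -0.99 within set A and -0.23 within set B. Cdc23 stood at 5.96 ± 1.204 TPM with TubA and 8.02 ± 2.60 TPM in control (log2 difference -0.34, 95% interval -0.93 to 0.24, limma unadjusted p = 0.22). Its coding transcripts gave -0.060 (-0.61 to 0.49), at 3.01 ± 0.913 TPM with TubA and 3.16 ± 0.781 TPM in control.

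Among single transcripts of Cdc23, the coding Cdc23-201 gave a log2 difference of -0.063 (-0.62 to 0.49). Cdc23-205, a retained intron fragment of 681 bases, had 3.49, 0.923, 0.571, 0.793 and 1.96 TPM in TubA replicates 1 to 5, against 2.50, 2.29, 7.54, 3.03 and 5.14 TPM in control replicates 1 to 5. All but TubA replicate 1 lay below every control library. Its log2 difference was -1.02 (95% interval -1.88 to -0.16, limma unadjusted p = 0.024), and it did not pass among the 21838 transcripts tested (limma adjusted p = 0.999998). The other retained intron transcript tested, Cdc23-204, differed in the other direction. Cdc23-204 stood at 1.40 ± 0.505 TPM with TubA and 0.705 ± 0.222 TPM in control (log2 difference 0.48, 95% interval -0.17 to 1.12, limma unadjusted p = 0.13). Of the 27 transcripts of the 10 genes that were tested, 0 passed the threshold, against 0.00458% of all transcripts, and 1 stood at an unadjusted p under 0.05, against 3.15% of all transcripts (limma).

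For the other genes the intervals bound what the data allow. The 95% interval lay within a 2-fold rise or fall of TPM + 1 for 8 of the 10 genes, where 57% of all genes met this bound. It was narrowest for Anapc4, and Cdc27 followed, at 66.8 ± 5.44 TPM with TubA and 65.0 ± 17.7 TPM in control (log2 difference 0.072, 95% interval -0.36 to 0.51). Anapc10 had a log2 difference of -0.19 (-0.70 to 0.31) and Anapc1 one of -0.26 (-0.79 to 0.27). Anapc2 had -0.24 (-0.82 to 0.34), Cdc16 had 0.13 (-0.59 to 0.86) and Anapc7 had 0.26 (-0.38 to 0.90). For Anapc2 and Cdc23, which are low, TPM itself could differ by more than TPM + 1.

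The intervals of Anapc5 and Anapc11 were the 2 that did not stay inside it. Anapc5 stood at 181 ± 99.2 TPM with TubA and 160.5 ± 65.5 TPM in control, and its log2 difference of 0.12 had an interval from -0.81 to 1.06. Without control replicate 1 the Anapc5 difference was -0.20. Both genes were among the more variable ones, with a spread within groups at percentile 80.7 for Anapc5 and percentile 86.2 for Anapc11 of all genes tested, while Anapc4 stood at percentile 8.71 and Cdc27 at percentile 9.80.

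**Figure D4:**
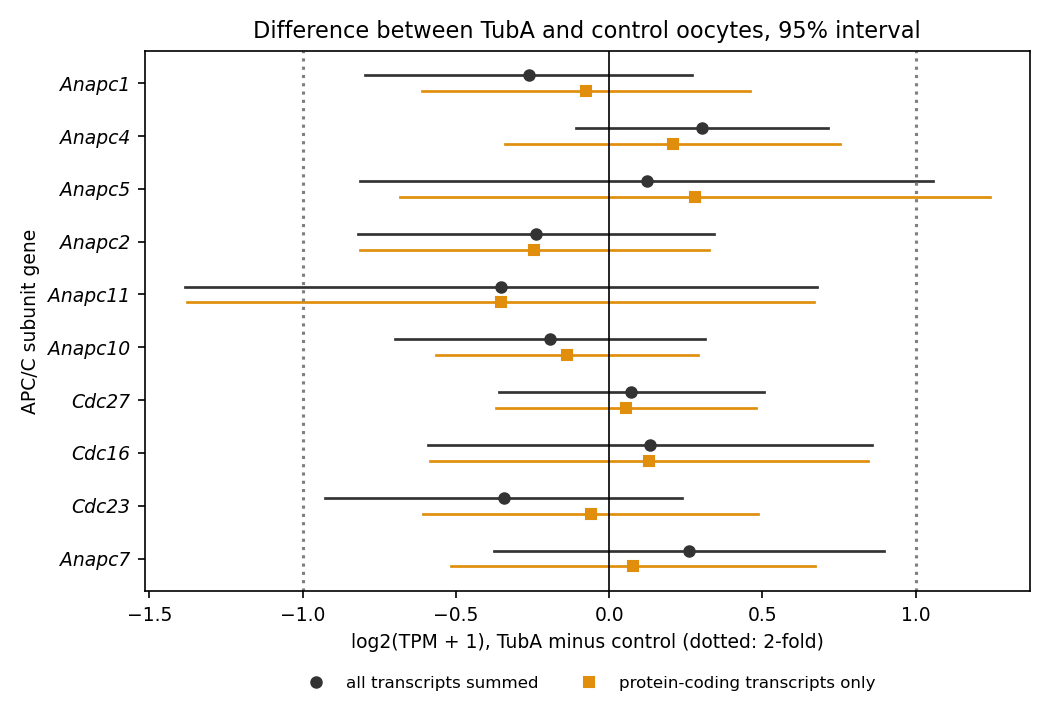
TubA minus control difference in log2(TPM + 1) for each subunit gene with its 95% interval from limma, for all transcripts summed (black circles) and coding transcripts only (orange squares), with dotted lines at a 2-fold change. Every interval includes 0, and those of Anapc5 and Anapc11 reach past a dotted line.

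Fitted on coding transcripts alone, again 0 of the 10 genes passed (limma, lowest unadjusted p = 0.37, for Anapc2), as did 0% of the 10099 genes tested in this way. At an unadjusted p under 0.05 stood 0 of the 10 here, where 2.4% of those genes did. The coding differences ran from -0.35 for Anapc11 to 0.28 for Anapc5.

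The 10 genes summed to 549, 577, 644, 905 and 713 TPM in TubA replicates 1 to 5, against 466, 644, 679, 842 and 708 TPM in control replicates 1 to 5. TubA replicate 4 was highest and control replicate 1 lowest. Anapc5 and Anapc11 together gave between 30.9% and 60.4% of the sum with TubA and between 30.2% and 57.6% in control. The coding transcripts of all 10 genes summed to 348 ± 74.2 TPM with TubA and 377 ± 84.8 TPM in control. No library was extreme for all subunits. TubA replicate 4 was the highest library for 3 genes, namely Anapc2, Anapc5 and Cdc16, but the lowest for Anapc10. Numbers of genes at or above 1 TPM were 11698 in TubA replicate 4 and 10521 in control replicate 1, the highest and lowest of the series. The part of this difference in the sums was not tested.

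**Figure D5:**
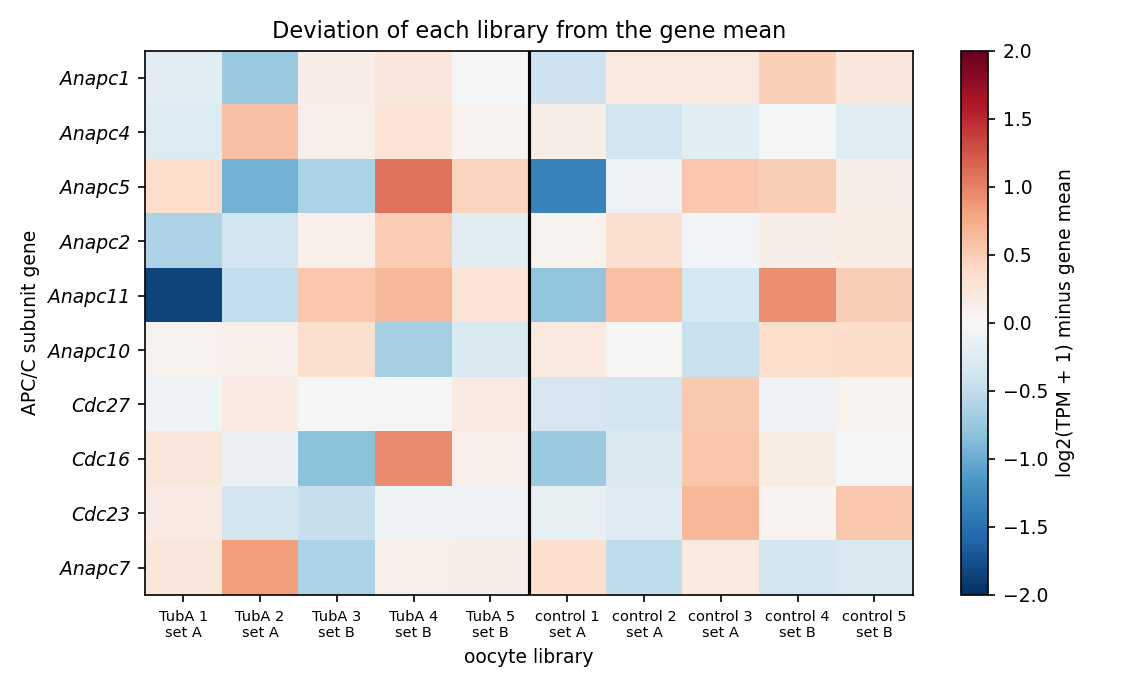
Deviation of each library from the mean of its gene in log2(TPM + 1), red above and blue below, with TubA libraries left of the black line and control libraries right of it, and the library set under each name. Anapc11 in TubA replicate 1 and Anapc5 in control replicate 1 are the deepest blue, and no gene has one colour on each side of the line.

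In a further ranking, 5817 named genes other than the 10 core genes, each averaging 10 TPM or more, were ordered. The order was by how closely their log2(TPM + 1) followed the log2 of this sum over the 10 libraries. The nearest were Setd3 (Pearson r = 0.96), Rps13 (r = 0.94) and Rbpms2 (r = 0.94). These values describe 10 single-oocyte libraries that were divided into the 2 sets and whose depths are unknown, and they are the highest of many. For Rps13, 18.5% of the words are shared with other genes, mostly a pseudogene. Rbpms2 stood at 381 ± 202 TPM with TubA and 336 ± 149 TPM in control.

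The remaining genes of the pathway did not pass either. Of the 4 other small subunits, 1 was higher and 3 lower, with 0 past the threshold (limma, 0 at an unadjusted p under 0.05) and a median log2 difference of -0.089. Anapc16 stood at 314 ± 100.1 TPM with TubA and 269 ± 68.8 TPM in control, above every one of the 10 core genes in mean. Cdc26, a chaperone-like partner of Cdc16, stood at 126.5 ± 49.99 TPM with TubA and 133 ± 29.1 TPM in control. The lowest p of the 4 was that of Anapc13, at 7.49 ± 3.84 TPM with TubA and 15.5 ± 8.46 TPM in control (limma unadjusted p = 0.18), named for that value after it was seen.

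Of 10 activators and inhibitors, 5 were higher and 5 lower, with 0 past the threshold (limma, 0 at an unadjusted p under 0.05) and a median log2 difference of 0.015. The coactivator Cdc20 stood at 491 ± 73.2 TPM with TubA and 579 ± 41.2 TPM in control, and Fzr1, which encodes the coactivator Cdh1, at 122 ± 61.9 TPM with TubA and 105 ± 52.0 TPM in control. Fbxo43, encoding the arrest factor Emi2, stood at 318 ± 38.0 TPM with TubA and 330.5 ± 79.5 TPM in control. Fbxo5, encoding its relative Emi1, stood at 298 ± 64.2 TPM with TubA and 342 ± 80.6 TPM in control, and 15.5% of its words also occur in Glcci1. Bub1b, encoding a checkpoint protein that binds Cdc20, stood at 743 ± 89.4 TPM with TubA and 724 ± 185 TPM in control.

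Among 8 genes of ubiquitin and of enzymes that pass it to the APC/C, 3 were higher and 5 lower, with 0 past the threshold (limma, 0 at an unadjusted p under 0.05) and a median log2 difference of -0.022. Ube2c, which starts ubiquitin chains on substrates, stood at 354 ± 119 TPM with TubA and 338 ± 65.5 TPM in control, and Ube2s, which extends them, at 570.0 ± 254 TPM with TubA and 831 ± 480 TPM in control. Ube2d3, the most abundant of these enzymes named here, stood at 3694 ± 209.6 TPM with TubA and 3816 ± 414 TPM in control.

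Of 12 substrates, 8 were higher and 4 lower, with 0 past the threshold (limma, 0 at an unadjusted p under 0.05) and a median log2 difference of 0.068. Pttg1, encoding securin, stood at 3653 ± 999 TPM with TubA and 3504 ± 1163 TPM in control. Ccnb1, encoding cyclin B1, stood at 1689 ± 212 TPM with TubA and 1609 ± 186 TPM in control, and 27.8% of its words are shared, mostly with Ccnb1-ps at a mean of 0.325 TPM. In mean TPM, both exceeded each of the 10 core subunit genes.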

How the data were processed

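The authors deposited 1 table per library with TPM for 115270 Ensembl transcripts. The unit was read from the values, whose sum per library averaged 1000000 after rounding. Build mm10 and Bowtie 0.12.2 are named per the submitters' processing notes. Which program and annotation gave the abundances is not given in the sources used here. TPM keeps no depth, and the number of libraries limits the precision. Library groups and replicate numbers came from the sample titles.

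Transcripts were matched to GENCODE M21 (GRCm38, the same assembly as mm10) without version numbers. Of them 113492 matched, and the 1778 others, with 0.531% to 0.753% of each library's TPM, were left out. TPM was summed per gene with Python 3.11.15 and pandas 2.3.3. limma 3.58.1 (R 4.3.3) was fitted to log2(TPM + 1) of the 11664 genes averaging 1 TPM or more over 10 libraries. The fit had no covariates, used limma's trend and robust options, and called genes at a Benjamini-Hochberg adjusted p of 0.05. A difference on this scale understates the change of low genes. The fit was tested on simulated data in which genes varied independently and no library sets existed. The changes planted there were larger than any difference of the 10 subunit genes, so it does not show how changes of their size are detected. The same fit was made on coding transcripts summed and, added after seeing the data, on single transcripts. Shared sequence was counted in words of 31 bases on either strand.

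The genes and lists were chosen with earlier results of these data known. The genes named are the 10 subunits, the 2 most abundant of each pathway list, 8 named regulators and substrates, and 3 genes nearest to the summed level. Of all these, 1 gene is not reported here. Other pseudocounts, filters and scalings, library weights, the replicate number as a block, the library sets and leaving out each library were the alternatives. Sets came from complete-linkage clustering of correlations, cut so as to give 2, and are no label of the submitters. Figures were drawn with matplotlib 3.10.9.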

Additional observations from a re-analysis of the deposited data

Results flagged for a closer look

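Among the 10 subunit genes and 12 pathway genes, 44 groups of 5 libraries were searched for a library far from the others, and 1 was found, where chance gives about 1 in 20. Ube2d3 had 3332 TPM in TubA replicate 2, while the other TubA libraries had between 3712 and 3857 TPM. No library of the 10 subunit genes stood apart in this way.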

How the results depend on the processing

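Under every alternative run, 0 of the 10 subunit genes passed the threshold. Their median log2 difference (-0.061) ran from -0.18 without control replicate 1 to 0.072 with a filter at 5 TPM. It was also above 0 in set A alone (0.053), in set B alone (0.00051) and without TubA replicate 1 (0.057). Each shift was below 0.19, the SD between single libraries of the members' median deviation. That SD is not the spread of a difference between group means. Over all genes 1 passed, and 0 passed with a filter at 5 TPM (which leaves Anapc2 out), with the replicate block, in set B alone or with coding transcripts only, and 12 in set A alone. The labels give same-numbered libraries nothing in common but the number. Their deviations correlated at 0.0031, -0.0048, -0.31, 0.48 and 0.26 in replicates 1 to 5. In replicates 4 and 5 the TubA and control library were each other's closest match in the other group, and in replicates 1 to 3 they were not. Libraries of the same group were not compared, and the libraries of replicates 4 and 5 all lay in set B. Whether any pair shared a source was not tested. No subunit gene shared 20% of its words with another gene, so none was summed with copies. Log2 differences that changed sign, none past the threshold, were -0.059 (Anapc5), 0.0042 (Ube2c), 0.093 (Fbxo43), -0.041 (Pttg1) and -0.074 (Anapc16) with library weights. With the set as a term they were 0.048 (Ube2c) and -0.032 (Pttg1), and in set A alone 0.16 (Anapc10) and 0.36 (Ube2c). In set B alone they were 0.0013 (Anapc2), -0.00026 (Anapc5), -0.11 (Fzr1), 0.076 (Fbxo43), -0.17 (Pttg1) and -0.066 (Anapc16). The cause was not tested. Leaving out each library in turn gave -0.20 to 0.38 for Anapc5, -0.59 to 0.065 for Anapc11, -0.089 to 0.35 for Cdc16, -0.010 to 0.21 for Cdc27, -0.10 to 0.49 for Fzr1, -0.11 to 0.26 for Ube2c, -0.95 to 0.048 for Ube2s, -0.11 to 0.093 for Fbxo43, -0.11 to 0.22 for Pttg1, -0.32 to 0.033 for Cdc26, -0.063 to 0.19 for Bub1b and -0.088 to 0.016 for Ube2d3.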
